A study of Pararge aegeria with 4 samples.

Results

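The Par miRNAs are the entries of the Speckled Wood butterfly, Pararge aegeria, that carry a species code in place of a conserved family name. The study that reported these libraries classed miRNAs found only in this butterfly as lineage-specific. That a Par- name marks this class was assumed here and is not stated by the study. Members were chosen by name alone: every entry beginning with Par- in the deposited miRNA lists of 2 ovarian small RNA libraries. There were 25 such entries among 90 listed miRNAs, 22 in the Zonza library and 16 in the St Hubert library. The others comprised 55 conserved miRNAs and 10 newly described ones.

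Each library was made from the ovaries of mated adult females of a laboratory-reared population, Zonza from Corsica or St Hubert from Belgium, with no treatment or genetic change in either. The females of each library were pooled. With 1 library per population there was no replicate, so no test between populations was possible. All intervals given are 95% intervals that cover counting error only, and they compare the libraries, not the populations. The listed reads summed to 1049925 in Zonza and 373413 in St Hubert, a ratio of 2.81. As a check of the tissue label, miR-989, a miRNA known for its abundance in insect ovaries, held 83.2% of the listed reads in Zonza and 77.2% in St Hubert.

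A miRNA is cut from a folded transcript, the hairpin, which yields a product from its 5' arm and another from its 3' arm. Usually 1 of the products is loaded into an Argonaute protein and guides it to messenger RNAs, mainly through the seed, bases 2 to 8 of the product. Lineage-specific miRNAs of animals are in general known to be expressed at low levels, and the targets of most are not known. No target or function is annotated for any Par miRNA in the files.

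The products that carried most of the reads are shown first, because the abundance of the group rests on them. They are the dominant products of the most abundant members of either library, written 5′ to 3′ with the seed in capitals.
Par-017 3p: cUGACUACgagcaugcucucag
Par-013 3p: gCUGAUUUuauggcugucac
Par-129 3p: aUCCCUAAuuaaaucucggcgg
Par-058 5p: gUGAGUACgaacuaauagagguu
Par-080 5p: aGACUAUUaagugaaaucgccu
Par-145 3p: uGUGUGAAuaaguagggaauucu

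The seeds of these 6 products all differed. The 25 members gave 50 products with 47 distinct seeds, and none of these seeds occurred among the 93 distinct seeds of the conserved miRNAs. For comparison, 18 of the 55 conserved miRNAs shared a seed with another conserved miRNA. The seeds shared within the group, or with another entry, came from a few products, shown here so that the overlap can be read directly.
Par-340 5p: uGGGAUAUuauaggauugucuga
Par-341 5p: uGGGAUAUuauaggauugucuga
Par-542 5p: aAGGCACUcuguggaauauua
Par-543 5p: aAGGCACUcuguggaauauua
Par-542 3p: aUAUUUCAauguagugccucaa
Par-543 3p: aUAUUUCAguguagugccucaa
Par-111 5p: uAUUUUUGuacucauguaguuugu
C-0261 5p: uAUUUUUGuagcugguuggcccau

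Par-340 and Par-341 had the same 5' product over all 23 bases, and their hairpins shared a stretch of 48 bases. Their read counts were identical in each library, so the reads of these 2 entries cannot be told apart. Par-542 and Par-543 also had the same 5' product, 21 bases long, and their 3' products matched at 21 of 22 bases. In Zonza 96 reads of that 5' product were listed under Par-542 and 3 under Par-543. How these reads were divided was not given. The listed hairpin of Par-542 did not contain its own products, matching the 5' product at only 15 of 21 bases, whereas the hairpin of Par-543 contained all 21. Par-111 shared only its seed and neighbouring bases with C-0261, a newly described miRNA of the Zonza library. Apart from the pair Par-340 and Par-341, no 2 Par hairpins shared more than 10 bases in a row on the same strand, and none shared more than 11 with a conserved or newly described hairpin.

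The group held a small part of the ovarian miRNA reads, and 2 members held most of that part. Par miRNAs took 12464 reads in Zonza, 1.19% of the listed reads (Wilson interval 1.17% to 1.21%), and 4847 reads in St Hubert, 1.30% (1.26% to 1.33%). The median member had 71.5 reads in Zonza, against 227 reads for the median conserved miRNA. In St Hubert the median member had 66.5 reads, against 384 reads for the median conserved miRNA. The newly described miRNAs had a median of 320 reads over 4 entries in Zonza and 94 reads over 8 in St Hubert. The study kept such new sequences only above its read cut-offs, which not every listed Par miRNA passed.

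Par-017 was the most abundant member in both libraries, with 5586 reads in Zonza and 1935 reads in St Hubert. Scaled to 1000000 listed miRNA reads (RPM), these counts are 5320 RPM in Zonza and 5182 RPM in St Hubert. Par-017 ranked 8th of all miRNAs in Zonza and 9th in St Hubert. Par-013 followed with 4723 reads in Zonza and 1714 reads in St Hubert. Par-013 ranked 9th of all miRNAs in Zonza and 12th in St Hubert. Together these 2 members held 82.7% of the Par reads in Zonza (82.0% to 83.4%) and 75.3% in St Hubert (74.0% to 76.5%).

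**Figure D1:**
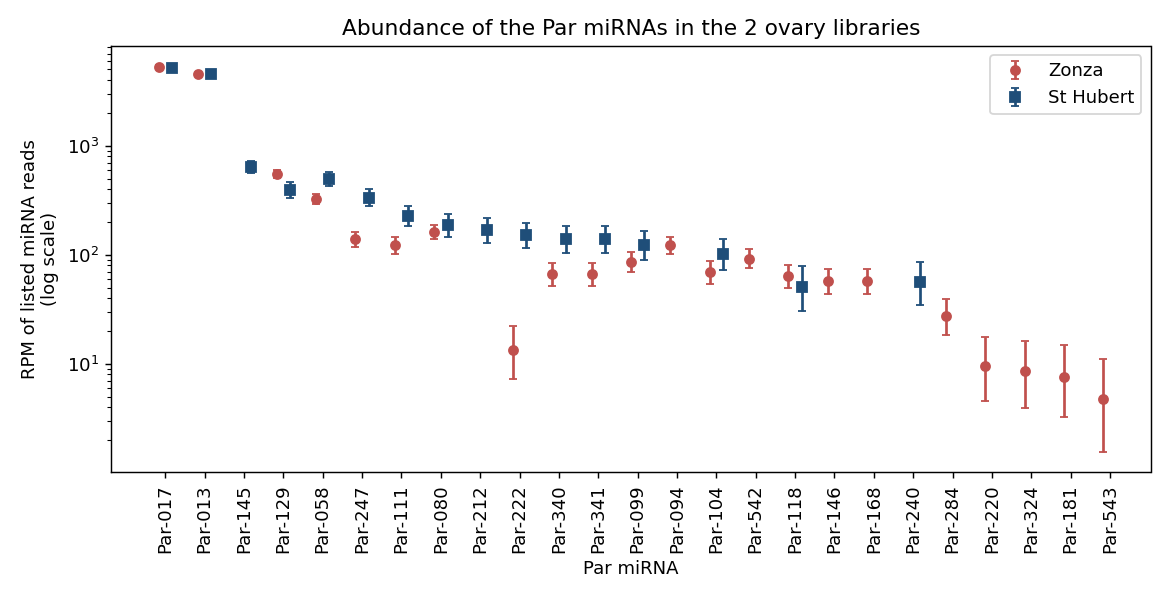
Abundance of the 25 Par miRNAs, in RPM (reads scaled to 1000000 listed miRNA reads) on a log scale, with exact 95% intervals for counting error; Zonza circles stand left of St Hubert squares, and a missing symbol means that the list of that library lacks the entry. Par-017 and Par-013 lie far above all others in both libraries, and Par-222 has the widest gap between libraries.

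Below these 2, the members fell away steeply. The next member in Zonza was Par-129 with 577 reads, against 148 reads in St Hubert. The next in St Hubert was Par-145 with 237 reads, an entry that Zonza did not list. Par-058 had 342 reads in Zonza and 185 reads in St Hubert, and Par-080 had 171 reads in Zonza and 70 reads in St Hubert. At the lower end, 14 of 22 members had under 100 reads in Zonza, and 10 of 16 did in St Hubert. Among all listed miRNAs, 32 of 81 did in Zonza and 32 of 67 in St Hubert. The lowest members were Par-543 with 5 reads in Zonza and Par-118 with 19 reads in St Hubert.

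The study used a cut-off on the reads of the dominant arm, over 50 in Zonza and over 18 in St Hubert. It was passed by 15 of 22 members in Zonza and by 15 of 16 in St Hubert, and 12 members passed in both. Of all listed miRNAs, 74.1% passed in Zonza, 97% passed in St Hubert and 60% passed in both. The lowest listed count was 5 reads in Zonza and 19 in St Hubert, so the St Hubert list held only totals over its cut-off. An entry there could fail only through reads on the lesser arm. The shares that passed thus depend on where each list stopped, and Zonza and St Hubert cannot be compared by them. The 7 members below the cut-off in Zonza were Par-168, Par-181, Par-220, Par-222, Par-284, Par-324 and Par-543, and the 1 below it in St Hubert was Par-240. Par-222 was thus above the cut-off in St Hubert, with 57 reads, and below it in Zonza, with 14 reads.

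The lists shared 13 members, and 12 were listed in 1 library only, 9 in Zonza and 3 in St Hubert. Of all 90 listed miRNAs, 35.6% were in 1 list only, and of the 55 conserved ones 21.8%. An entry missing from a list was not taken as absent from the library, since the lowest listed count was 5 in Zonza and 19 in St Hubert. The St Hubert list stopped just over that library's cut-off, while the Zonza list went far below its own. The lists thus reached down to different counts, and the 9 and the 3 cannot be compared. Of the 9 in Zonza, 3 passed its cut-off: Par-094 with 128 reads, Par-542 with 97 reads and Par-146 with 60 reads. Par-542 shared its 5' product with Par-543, so its count is not that of a separate product. At an equal share of reads, St Hubert would hold 45.5 reads of Par-094, 34.5 reads of Par-542 and 21.3 reads of Par-146. The first 2 of these values lie above the lowest count that St Hubert lists, and the third lies close to it. The others listed in Zonza only were Par-168 with 60 reads, Par-284 with 29, Par-220 with 10, Par-324 with 9, Par-181 with 8 and Par-543 with 5. For 5 of these 6, all but Par-168, the count at an equal share was 10.3 reads or fewer, which is below the lowest count in the St Hubert list.

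The 3 members listed in St Hubert only were further from the listing limit of the other library. At an equal share Zonza would hold 666 reads of Par-145, which had 237 reads in St Hubert. It would hold 177 reads of Par-212, which had 63 reads in St Hubert, and 59.0 reads of Par-240, which had 21. Each of these values is above the lowest count that Zonza lists.

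For the members in both lists, read shares were compared as a ratio, Zonza over St Hubert, called when at least 2 or at most 0.5. Of the 13, 4 were called lower in Zonza and 0 were called higher. Among all 58 miRNAs listed in both, 24.1% were called in either direction, 20.7% lower in Zonza and 3.45% higher. The median ratio was 0.68 over the 13 members and 0.77 over all 58. No p-value was computed by any tool, as there was no replicate.

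Par-222 had the lowest ratio of the 58, with 14 reads in Zonza and 57 reads in St Hubert. These are 13.3 RPM in Zonza and 153 RPM in St Hubert, a ratio of 0.0874 (exact conditional interval 0.0450 to 0.159). All of its reads in both libraries came from the 3' arm. Par-247 had 146 reads in Zonza and 125 reads in St Hubert, a ratio of 0.415 (0.325 to 0.532). The entries Par-340 and Par-341 each had 70 reads in Zonza and 52 reads in St Hubert, a ratio of 0.479 (0.330 to 0.699). Since their reads cannot be told apart, the 4 called entries stand for 3 distinct dominant products.

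The highest ratios were smaller departures from 1. Par-129 had a ratio of 1.39 (1.16 to 1.67), the only member whose interval lay above 1. Among all 58 miRNAs in both lists the interval lay above 1 in 8. Par-118, with 67 reads in Zonza and 19 reads in St Hubert, had a ratio of 1.25 with a wide interval (0.744 to 2.21). Par-017 had a ratio of 1.03 (0.975 to 1.08) and Par-013 a ratio of 0.980 (0.927 to 1.04). The 2 abundant members thus had close to equal shares of all listed reads in both libraries. The other members, Par-058, Par-080, Par-099, Par-104 and Par-111, had ratios between 0.536 and 0.869.

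**Figure D2:**
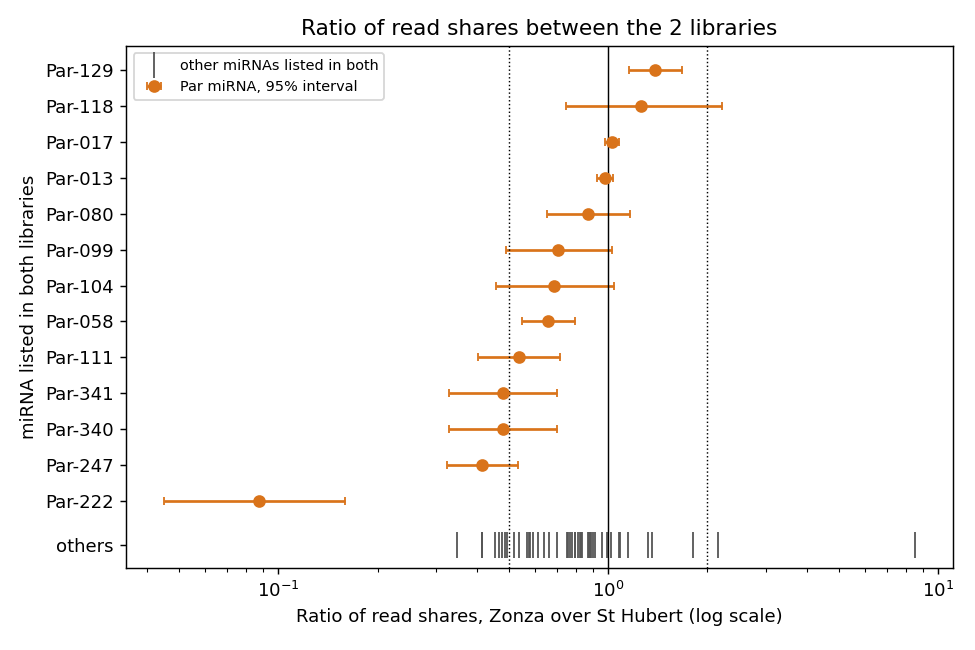
Ratio of read shares, Zonza over St Hubert, on a log scale for the 13 Par miRNAs in both lists, with exact conditional 95% intervals, and as ticks for the other miRNAs in both lists; the solid line marks 1 and the dotted lines 0.5 and 2. Par-222 lies below every other miRNA, and the remaining members lie within the range of the others.

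These ratios rest on the share of miR-989, which was larger in Zonza. Without its reads every ratio was multiplied by 1.36. Then 1 member of 13, Par-222, was called, with a ratio of 0.119, beside 8.62% of all 58 miRNAs, which was 5. The members above 1 numbered 5 in place of 3, Par-013 and Par-080 being the additional ones. The interval lay above 1 in 4 members in place of 1, and below 1 in 5 in place of 6. Over all 58 miRNAs the ratio was above 1 in 32 in place of 12. Their interval lay above 1 in 22 in place of 8, and below 1 in 19 in place of 33. The abundant members no longer had near-equal shares, with ratios of 1.40 for Par-017 and 1.34 for Par-013. The share of the group turned with it. For the 13 members in both lists summed, the ratio was 0.948 (0.916 to 0.981) over all listed reads and 1.29 (1.25 to 1.34) without miR-989. For every listed member summed, where an entry missing from a list adds no reads to that library, it was 0.915 (0.885 to 0.946) over all listed reads and 1.25 (1.21 to 1.29) without miR-989. As a share of the reads without miR-989, Par miRNAs held 7.08% in Zonza and 5.68% in St Hubert.

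Most members gave nearly all of their reads from 1 arm. At least 90% of reads came from the dominant arm in 14 of 22 members in Zonza (63.6%) and in 12 of 16 in St Hubert (75%). Over all listed miRNAs the same held for 70.4% in Zonza and 65.7% in St Hubert. Over both libraries the 3' arm was dominant in 14 members and the 5' arm in 11. The reads themselves came mostly from the 3' arm, since Par-017 and Par-013 are both 3' dominant: 11.6% of Par reads lay on the 5' arm in Zonza and 15.9% in St Hubert.

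Arm use was similar in both libraries for most shared members. All 13 members in both lists kept the dominant arm, which was 5' in 9 and 3' in 4. So did 56 of all 58 miRNAs in both lists. The share of reads on the 5' arm differed by less than 5 percentage points in 12 of the 13 members and in 48 of all 58 miRNAs. The exception among the 13 was Par-104, for which 71 of 73 reads were 5' products in Zonza and 32 of 38 were in St Hubert. Its 5' share was 97.3% in Zonza and 84.2% in St Hubert, a difference of 13.05 percentage points (Newcombe interval 2.34 to 27.8). It was the 1 member of 13 whose interval left out 0, beside 13.8% of all 58 miRNAs.

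A lesser arm with at least 20% of the reads, among members with at least 50 reads, occurred in Par-168 and Par-145. Par-168 in Zonza gave 28 reads of the 5' product and 32 of the 3' product, a 5' share of 46.7% (Wilson interval 34.6% to 59.1%). Par-145 in St Hubert gave 51 reads of the 5' product and 186 of the 3' product, a 5' share of 21.5% (16.8% to 27.2%). Both products of each are shown, since neither arm can be set aside.
Par-168 5p: aGAACGUUcuugugccgcuug
Par-168 3p: aAGCGGCAcaagaacgug
Par-145 5p: uAUUACUCuacucuuucagacaca
Par-145 3p: uGUGUGAAuaaguagggaauucu

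At the other end, no read of the lesser arm was listed for 4 members in Zonza, Par-094, Par-111, Par-118 and Par-222. The same held for 3 in St Hubert, Par-118, Par-212 and Par-222. Among all listed miRNAs it held for 21 of 81 in Zonza and 14 of 67 in St Hubert. These zeros are limited by depth: for Par-222 in Zonza, with 14 reads, the interval for the 5' share reached 21.5%, and for Par-094, with 128 reads, 2.91%. Members with few reads, such as Par-181, Par-220, Par-240, Par-324 and Par-543, had intervals too wide to place their arm use.

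**Figure D3:**
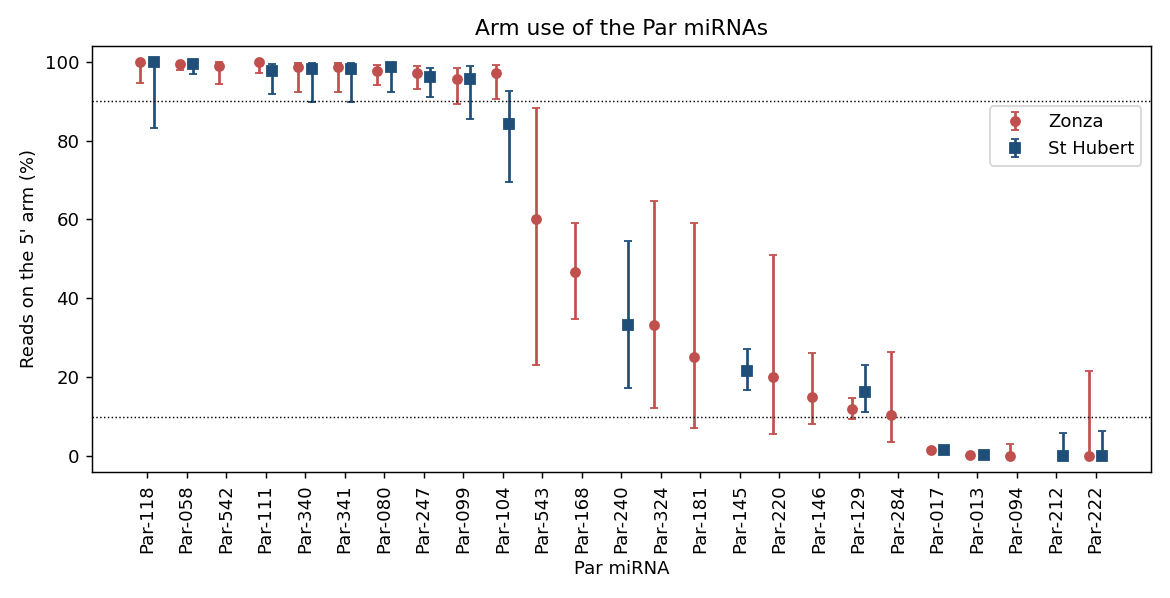
Share of reads on the 5' arm, in percent, for each Par miRNA with Wilson 95% intervals; Zonza circles stand left of St Hubert squares, and dotted lines mark 10% and 90%. The members with a 5' share over 90% or under 10% lie at the ends; those between are Par-168, Par-145, Par-129, Par-146, Par-104 in St Hubert, and 6 members with under 50 reads and wide intervals.

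The listed hairpins were of nearly uniform length, with a median of 112 bases for Par miRNAs and 112 for conserved ones. Where both libraries listed a hairpin, the Zonza version was measured. By that choice the longest was that of Par-094 with 115 bases and the shortest that of Par-212 with 89 bases. The position of the dominant product was also nearly uniform. It began at base 71 in 12 of the 14 members with a dominant 3' arm. It began at base 21 in 8 of the 11 with a dominant 5' arm, of which Par-542 could not be placed. The same 2 positions held 26 of 35 conserved miRNAs with a dominant 3' arm and 17 of 20 with a dominant 5' arm. Both of these totals include conserved miRNAs whose products could not be placed. For 6 members the St Hubert list gave a shorter hairpin that lay within that of Zonza, among them Par-080 with 112 bases in Zonza and 76 in St Hubert, and Par-129 with 112 bases in Zonza and 80 in St Hubert. The ends of a hairpin could thus differ between lists for the same miRNA. How these ends were set was not given, so length and start position describe the listed sequences and were not read as traits of the miRNAs.

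The span from the start of the 5' product to the end of the 3' product leaves out the listed flanks. It had a median of 59 bases in 24 Par miRNAs and 59 in 51 conserved ones. Par-542 could not be placed, as its hairpin lacks its products. The shortest span was 51 bases, in Par-168, and the longest 82, in Par-094, followed by Par-058 with 81. Folded with RNAfold, whole Par hairpins had a median energy of -0.34 kcal/mol per base, against -0.36 for conserved ones. Over the span alone the median was -0.34 in Par miRNAs and -0.40 in conserved ones. The span ranges overlapped, from -0.77 to -0.25 in Par miRNAs and from -0.57 to -0.26 in conserved ones. Par-168 had the lowest energy per base of all 90 whole hairpins, -0.56, and Par-247 the highest among whole Par hairpins, -0.19. The hairpin listed for Par-284 holds 10 unknown bases, which were left unpaired. The dominant product began with u in 10 of 25 members and in 29 of 55 conserved miRNAs.

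Members also differed in the pairing of their products. The longest run over which the 5' product was complementary to the 3' product, without a bulge or a G-U pair, had a median of 7 bases in Par miRNAs and 6 in conserved ones. The longest run among the 51 conserved miRNAs with both products listed was 12 bases. In 5 Par miRNAs it was longer, a feature picked out after the values were seen: 18 bases in Par-146, 17 in Par-168, 15 in Par-099, 14 in Par-284 and 13 in Par-212. Of these 5, only Par-099 was in both lists. The spans of the first 3 are shown with both products in capitals, so that the paired arms can be followed.
Par-146: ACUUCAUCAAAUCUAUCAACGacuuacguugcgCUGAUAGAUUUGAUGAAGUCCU
Par-168: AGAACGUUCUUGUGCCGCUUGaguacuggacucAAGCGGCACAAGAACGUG
Par-099: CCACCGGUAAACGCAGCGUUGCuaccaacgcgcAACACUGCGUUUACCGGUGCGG

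Read counts of these 5 were low, from 29 in Par-284 to 91 in Par-099 in Zonza, and 63 for Par-212 and 46 for Par-099 in St Hubert. Their arm use varied: Par-212 gave reads from the 3' arm only, Par-099 95.6% from the 5' arm in Zonza and 95.7% in St Hubert, and Par-168 gave similar numbers from both. The 2 abundant members had shorter runs, 11 bases in Par-013 and 6 in Par-017.

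**Figure D4:**
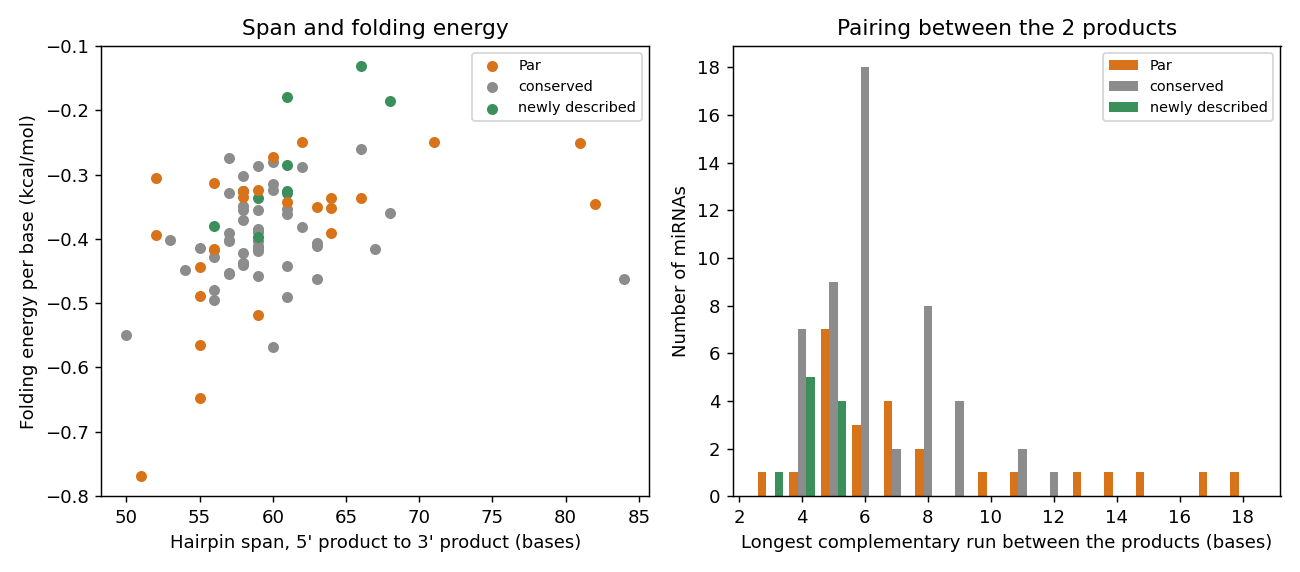
Left, hairpin span in bases against folding energy per base of the span in kcal/mol; right, number of miRNAs by the longest complementary run between the products, in bases. Par miRNAs spread over the range of the conserved ones in span, and 5 of them have runs longer than the conserved maximum of 12 bases.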

How the data were processed

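Small RNA was sequenced from ovaries of 2 populations, 1 library each. The authors deposited, per library, a list of miRNAs with raw read counts in total and for each arm, both product sequences and the hairpin. Bowtie is named in the submitters' processing notes; its version was not given in the sources used here. Per the study's methods, sequences without a match to known miRNAs of the species were filtered on repeats, arms, 5' ends and the read cut-offs, and the same cut-offs served to call known miRNAs expressed. The minimum for listing a known miRNA was not given in the sources used here. No genome was used, so no coordinates are given, and the deposited mRNA table was not used. A Pae- name in either list marked a conserved miRNA.

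Shares were taken over all listed miRNA reads, 1049925 in Zonza and 373413 in St Hubert. Intervals at 95% were Wilson for shares, exact conditional for ratios, exact for RPM and Newcombe for arm differences (scipy 1.17.1), tested on simulated data. They cover counting error only. Hairpins were folded at 37 °C with ViennaRNA 2.7.2, and TMM factors came from edgeR 4.0.16. Alternatives were other scalings, folds, read minimums, cut-offs, arm limits and hairpin ends.

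Values are given in full for the 5 most abundant members of each library, the 3 largest and 3 smallest ratios with at least 50 reads over both, members in 1 list above its cut-off, members with at least 20% on the lesser arm, members sharing a product, seed or 20 bases, and the longest and shortest hairpins. Members and lists were chosen with earlier results of these data known.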

Additional observations from a re-analysis of the deposited data

How the results depend on the processing

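No paired analysis was possible because each population had 1 library, and no library could be left out. Without miR-989, by median of ratios and by TMM, 1 Par entry was called in place of 4, beside 8.62% in place of 24.1% of all 58 miRNAs, and the ratio for all members summed was 1.25, 1.18 and 1.23 in place of 0.915. A 3-fold limit also left 1 entry. In alternatives chosen after seeing the data, the summed ratio was 0.640 without Par-013 and Par-017, 0.948 over members in both lists, 0.709 over these without Par-013 and Par-017, and 1.29 over them without miR-989. Without miR-989 the share of the group was 7.08% in Zonza and 5.68% in St Hubert. Doubled cut-offs left 8 members in Zonza and 7 in both libraries, in place of 15 and 12. With at least 50 reads in each library, 0 members had an arm difference whose interval left out 0, since Par-104 had 38 reads in St Hubert. The median hairpin was 59 bases from product to product, in place of 112, and the median energy per base was -0.47 at 21 °C, in place of -0.34. The other 22 alternatives for these results stayed within their intervals or within 1.5 times the count. Depth limits the members under 20 reads most, 5 in Zonza and 1 in St Hubert. The St Hubert list holds no count under 19, so these 2 numbers cannot be compared.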
